A study of Mus musculus with 20 samples.

Results

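Hearts of Dp3Tyb embryos were compared directly with hearts of Ts1Rhr embryos, 10 of the 20 RNAseq libraries of the series, with 5 in each group. Both strains are mouse models of Down syndrome (DS) with an extra copy of part of mouse chromosome 16 (Mmu16). Dp3Tyb carries Dp(16Mir802-Zbtb21)3TybEmcf, and Ts1Rhr carries the shorter Dp(16Cbr1-Fam3b)1Rhr, which lies inside it. All hearts were taken at the embryonic stage E13.5, and the labels name no treatment. Both duplications are inherited and present in every cell of the embryo. The remaining 10 libraries were wildtype (WT) hearts labelled wt_d and wt_t, read here as littermates of Dp3Tyb and Ts1Rhr, 5 of each. They served to show how far the 2 cohorts differed without either duplication, and as the controls of each strain. All 5 Dp3Tyb hearts were labelled with heart defects, as were Ts1Rhr replicates 1 and 2, while Ts1Rhr replicates 3, 4 and 5 were labelled as having none. The labels of Ts1Rhr replicates 1 and 2 conflict with the study's text, in which the strain has no such defects, and all 5 hearts were kept as 1 group by genotype. The question was which transcripts differ between a strain studied for its heart defects and a strain whose duplication is slightly shorter. Of 48795 genes in the table, the 14855 with a value of at least 10 in 5 or more of the 10 libraries were tested.

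The heart at E13.5 is a beating organ in which the septa and valves that divide the chambers are still being completed. It holds cardiomyocytes, endocardium and other endothelium, epicardium, fibroblasts, smooth muscle and macrophages, together with the blood that was in the chambers at dissection. A gene present in an extra copy is often transcribed in proportion, so a gene in 3 copies in one strain and in 2 copies in the other is an internal check of the genotype. Red cells of this stage come from the yolk sac, as large cells that use embryonic globins but not these alone, and from the fetal liver, whose cells use adult globins.

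Values were normalised read counts, that is reads divided by a library factor, and all 20 libraries had been scaled together. Libraries held 12.5 to 19.1 M reads in Dp3Tyb and 13.6 to 19.6 M in Ts1Rhr, with means of 16.8 and 16.7 (exact permutation test, 2-sided, p = 0.937). The 13 mRNAs of the mitochondrial genome took over 10% of reads in Dp3Tyb replicate 5 (15.1%) and in Ts1Rhr replicates 1 (11.3%) and 2 (12.8%), and 5.00 to 5.88% in the other 7 libraries. The group means of 7.44% and 8.17% did not differ beyond the spread between libraries (exact permutation test, 2-sided, p = 0.841). Control libraries held 6.60 to 19.3 M reads in wt_d and 9.50 to 18.0 M in wt_t. The mitochondrial share was over 10% in wt_d replicate 5 (19.1%), the shallowest library. It was also over 10% in wt_t replicates 1 (11.5%), 2 (10.2%) and 4 (16.9%). All defining markers of cardiomyocytes, endothelium, epicardium, fibroblasts and smooth muscle were above 10 in all 10 libraries, so the libraries carried the transcripts of heart tissue. Markers of lung and foregut, tissue that adjoins the heart, varied from heart to heart: Nkx2-1 ranged from 0 to 49.9 and Cdh1 from 0 to 215.7 over the 10 libraries, and Sftpc was at 0 in 8 of them. No 2 libraries of a group were alike, since every pair of replicates differed beyond counting noise (chi-square per gene of at least 4.11).

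Dp3Tyb hearts had higher transcript levels of 2 genes at the distal end of the duplicated segment and lower levels of 3 adult globin genes. No other gene passed the adjusted threshold in limma, and the globin genes leaned the same way between the WT groups. In limma, 5 of the 14855 genes passed an adjusted p of 0.05, which is 0.0337% of them: 2 higher in Dp3Tyb (0.0135%) and 3 lower (0.0202%). The 2 higher were C2cd2 and Zbtb21, both in 3 copies in Dp3Tyb and in 2 copies in Ts1Rhr. The 3 lower were Hba-a2, Hba-a1 and Hbb-bs, the adult alpha globins and an adult beta globin. An unadjusted p under 0.05 was reached by 319 genes, 2.15%, a smaller share than that threshold gives by chance. The groups did not overlap at all for 96 genes (0.646%), of which 42 were higher in Dp3Tyb (0.283%) and 54 lower (0.364%). Random splits of 10 libraries into 5 and 5 would separate the groups for 0.794% of genes. Separate groups alone are therefore no sign of a strain difference. Without the 3 libraries over 10% mitochondrial reads only C2cd2 passed, and without the 2 Ts1Rhr hearts labelled with defects, which are 2 of those 3 libraries, C2cd2, Hba-a1 and Hba-a2 did. The label and the mitochondrial share cannot be told apart within Ts1Rhr. The p-values measure only the spread between these hearts, since the labels do not say how litters were sampled. The median log2 difference of all genes was -0.0011, with an interquartile range of -0.068 to 0.065.

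The first set of genes was the 8 with 3 copies in Dp3Tyb and 2 in Ts1Rhr. They lie at the 2 ends of the segment (GRCm38, positions from RefSeq): Setd4 (chr16:93583457-93604791) and Cbr1 (chr16:93607837-93610349) at the proximal end, and Mx2, Tmprss2, Ripk4, Prdm15, C2cd2 and Zbtb21, from chr16:97536081-97962627, at the distal end. All 8 were tested, all 8 had a higher mean on the log2 scale in Dp3Tyb, 2 passed the adjusted threshold, and 4 had groups that did not overlap. Of all genes tested, 0.0135% passed as higher in Dp3Tyb and 0.283% had separate groups with Dp3Tyb higher. Their median log2 difference was 0.58, which is 1.5-fold, against -0.0011 for all genes, and a copy ratio of 3 to 2 corresponds to 0.58. Between wt_d and wt_t, where the copy number is the same, the median of the 7 of them that were tested was 0.039.

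**Figure D1:**
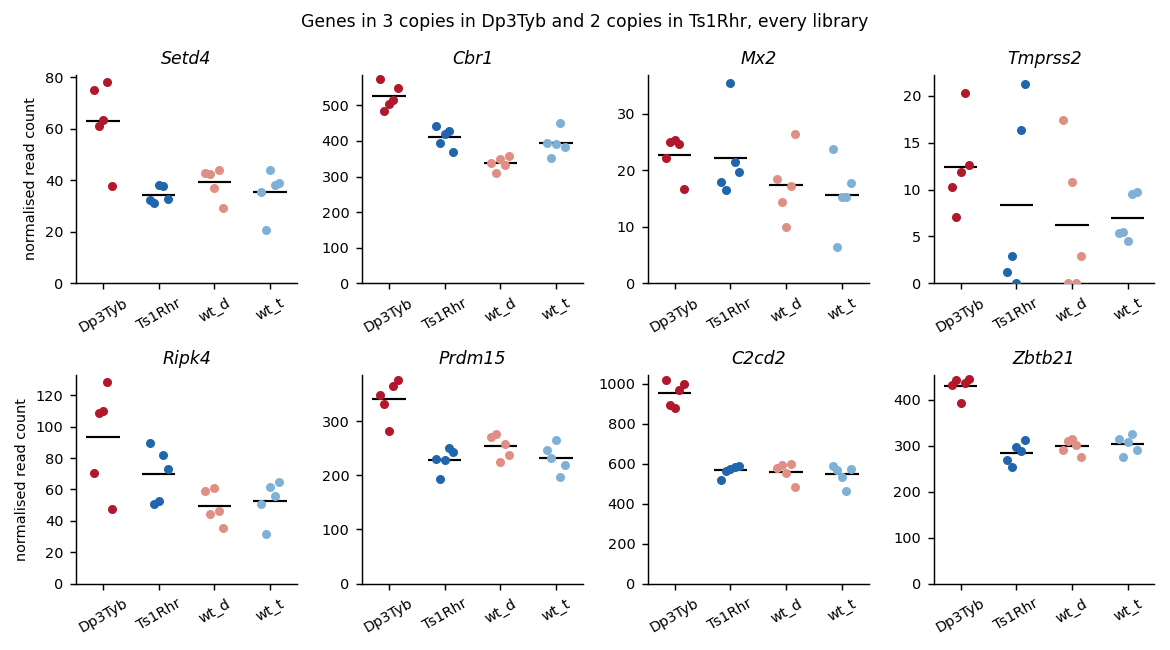
Normalised read counts (vertical axes, linear from 0) of the 8 genes in 3 copies in Dp3Tyb and 2 copies in Ts1Rhr; each point is a library, 5 in each of the 4 groups, and the bar is the mean. C2cd2, Zbtb21, Prdm15 and Cbr1 have all 5 Dp3Tyb libraries above all 5 Ts1Rhr libraries, whereas Mx2, Tmprss2, Ripk4 and Setd4 overlap.

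C2cd2, which encodes a C2 domain protein of membranes, showed the firmest difference. Its normalised read counts in Dp3Tyb replicates 1 to 5 were 1017, 894, 879.7, 969 and 999, and in Ts1Rhr they were 516, 565, 574, 586 and 589.8. The lowest Dp3Tyb heart was far above the highest Ts1Rhr heart, and the Ts1Rhr values lay among those of wt_d (482 to 597) and wt_t (463 to 591). The log2 difference was 0.75 ± 0.065 (SE, 95% interval 0.60 to 0.89, limma adjusted p = 0.00136), or 1.68-fold.

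Zbtb21, a zinc finger transcriptional repressor and the distal end gene of the Dp3Tyb allele, had counts of 432, 443, 393, 436 and 445 in Dp3Tyb and of 269, 254, 298, 288 and 314 in Ts1Rhr. Again no Ts1Rhr heart reached the lowest Dp3Tyb heart. The log2 difference was 0.60 ± 0.076 (SE, limma adjusted p = 0.0197), 1.51-fold, and the call was lost in several alternatives, with a limma adjusted p of 0.0928 to 0.104 without Dp3Tyb replicate 2 or 4 or Ts1Rhr replicate 1 or 4, each left out in turn. It was also lost in 5 of 15 other settings, at log2 differences of 0.50 to 0.60. The limma adjusted p was 0.119 without the libraries over 10% mitochondrial reads and 0.180 without the Ts1Rhr hearts labelled with defects. With an erythroid marker term it was 0.9996.

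Prdm15, a chromatin regulator of the PRDM family, and Cbr1, a cytosolic carbonyl reductase, separated the groups too but did not pass the adjusted threshold in limma. Prdm15 counts were 348, 331, 282, 366 and 376 in Dp3Tyb and 229.9, 193, 229, 249.995 and 243 in Ts1Rhr, a log2 difference of 0.57 ± 0.10 (SE, adjusted p = 0.158). Cbr1 counts were 573, 483, 504, 515 and 548 in Dp3Tyb and 442, 393, 420.045, 428 and 368 in Ts1Rhr, a log2 difference of 0.35 ± 0.074 (SE, adjusted p = 0.449). Cbr1 was the only 1 of these genes with an unadjusted p under 0.05 between the controls, with means of 337 in wt_d and 394 in wt_t and a log2 difference of -0.22 ± 0.081 (SE, unadjusted p = 0.0189, not passing after adjustment). Cbr1 gives its name to the proximal end of the Ts1Rhr allele, and its mean of 410.3 in Ts1Rhr lay close to that of wt_t. With the controls taken off each strain, the difference for Cbr1 was 0.58 ± 0.10 (SE, adjusted p = 0.101). DESeq2 on the whole reads recovered from the values called C2cd2, Zbtb21, Prdm15 (adjusted p = 2.36e-04), Cbr1 (adjusted p = 0.00968) and Setd4 (adjusted p = 0.0155).

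Setd4, a lysine methyltransferase gene, had few reads, with counts of 74.9, 61, 63.6, 78.2 and 37.8 in Dp3Tyb and 32.3, 31.2, 38.2, 37.8 and 32.9 in Ts1Rhr. Dp3Tyb replicate 5, the library with the highest mitochondrial share of the 10, was the only Dp3Tyb heart inside the Ts1Rhr range. Its log2 difference was 0.82 ± 0.19 (SE, limma adjusted p = 0.699), and without that library it was 0.99 (adjusted p = 0.0477). Ripk4, a kinase of epithelial cells, had counts of 47.6 to 128 in Dp3Tyb and 50.8 to 89.8 in Ts1Rhr (log2 difference 0.37 ± 0.27, SE). Mx2, an interferon-induced GTPase, overlapped between the groups, with counts of 22.1, 25, 25.4, 24.6 and 16.8 in Dp3Tyb and 18, 16.6, 35.5, 21.5 and 19.7 in Ts1Rhr. Its interval, -0.42 to 0.56, just failed to reach 0.58. Tmprss2, an epithelial serine protease, had counts of 10.2, 7.04, 11.9, 20.3 and 12.6 in Dp3Tyb and 1.2, 2.93, 0, 16.3 and 21.2 in Ts1Rhr, and its interval in limma ran from -0.33 to 2.998. Its log2 difference of 1.33 in limma was 0.55 in DESeq2, 0.48 in edgeR, 0.11 to 2.14 over all other settings and 0.75 to 1.86 with 1 library left out, the extremes being without Ts1Rhr replicate 3 and without Ts1Rhr replicate 5. Within Ts1Rhr, replicates 1 and 3, the lowest for Tmprss2, were also the lowest of the 10 libraries for the mean log2 level of lung and foregut markers, and replicates 4 and 5 the highest of their group for both. The intervals of Setd4, Ripk4, Prdm15, Zbtb21 and Tmprss2 contained 0.58, that of C2cd2 lay above it and that of Cbr1 below it.

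The second set was the 31 genes in 3 copies in both strains, in which the copy number is equal. Of these, 20 were tested, and 49.4% of all genes tested were higher in Dp3Tyb. Among the 20, 13 were higher and 7 lower in Dp3Tyb, none passed the adjusted test in limma, edgeR (which called 4 of all genes, 0.0269%) or DESeq2, 1 had an unadjusted p under 0.05, and none had groups that did not overlap. Their median log2 difference was 0.013 (interquartile range -0.034 to 0.10), and -0.010 between the controls. Dyrk1a, a dosage-sensitive kinase gene, had counts of 2529, 2491, 2499, 2403 and 3196 in Dp3Tyb and 2759, 2720.5, 2413, 2551 and 2435 in Ts1Rhr. Every heart of both strains lay above every control heart, whose counts were 1692 to 2287 in wt_d and 1739.5 to 2339 in wt_t. The log2 difference of Dyrk1a between the strains was 0.021 ± 0.083 (SE, 95% interval -0.16 to 0.20), so a difference of 0.58 in either direction lay outside the interval.

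The highest log2 differences among the shared genes were those of Sim2, a transcription factor (0.56 ± 0.84 in limma, but -0.048 in edgeR and -0.020 in DESeq2), Get1, a factor that inserts tail-anchored proteins (0.22 ± 0.15), and Bace2, a protease (0.15 ± 0.070). The lowest were those of Kcnj15, an inwardly rectifying potassium channel (-0.14 ± 0.11), Erg, an ETS factor of endothelium (-0.094 ± 0.18), and Sh3bgr, expressed in heart muscle (-0.067 ± 0.16). None of these 6 passed the adjusted threshold, and their groups overlapped. Sim2 ranged from 1.2 to 51.5 within Ts1Rhr alone, and it was 0 in 2 of the 5 wt_d hearts. Get1 and Bace2 had like values between the controls, 0.26 ± 0.17 and 0.19 ± 0.080.

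**Figure D2:**
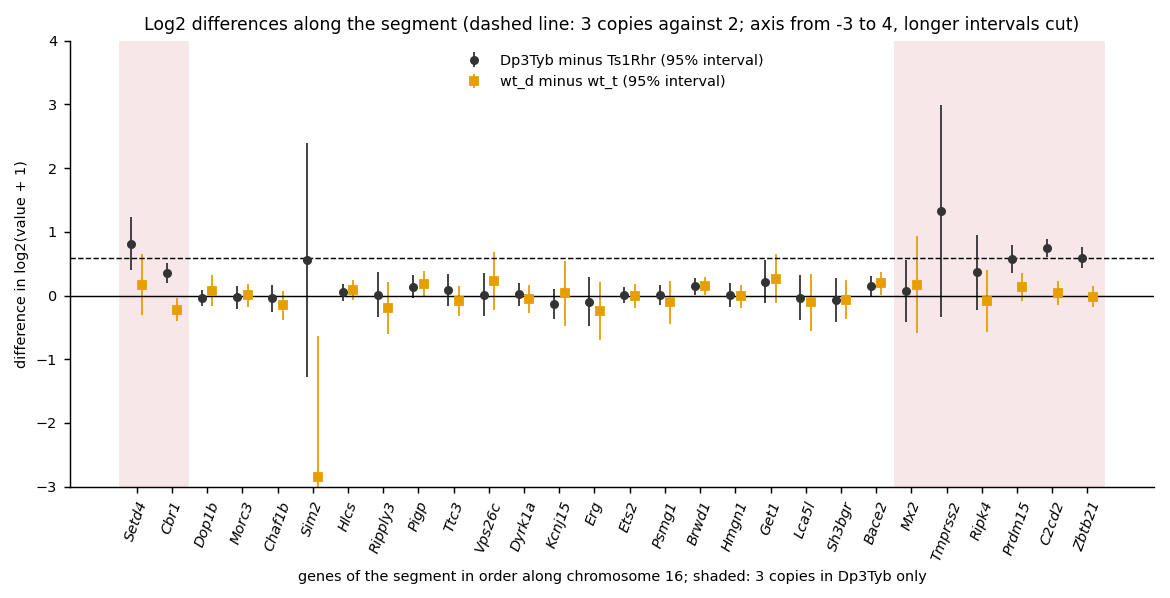
Differences in log2(value + 1) with 95% limma intervals for the 28 tested genes of the segment, in order along Mmu16; circles are Dp3Tyb minus Ts1Rhr, squares wt_d minus wt_t, and the shading marks genes in 3 copies in Dp3Tyb only. The dashed line marks 3 copies against 2 (0.58). In the shaded ends the circles of Setd4, Tmprss2 and C2cd2 lie above it and those of Cbr1, Mx2 and Ripk4 below it, with Prdm15 and Zbtb21 close to it. Those between the ends lie near 0, except that of Sim2, whose interval is wide. The interval of Sim2 between the controls runs past the lower edge, and Tmprss2 was not tested between the controls.

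Genes of Mmu16 outside the segment were in 2 copies in both strains. Within 5 Mb of it, 32 genes were tested, 16 higher and 16 lower in Dp3Tyb, none past the adjusted threshold, none with separate groups, and with a median of -0.0084. The 3 nearest tested genes were the non-coding B230307C23Rik on the distal side (-0.076 ± 0.19), and Runx1, a blood transcription factor (0.15 ± 0.17), and Clic6, a chloride channel protein (0.31 ± 0.23), on the proximal side (log2 difference ± SE).

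The third set was red cell genes, most of which were lower in Dp3Tyb. Of 18 erythroid genes listed, 17 were tested, 14 were lower in Dp3Tyb on the log2 scale, 3 passed the adjusted threshold in limma, all lower, and 6 had separate groups, all lower, beside 0.0202% and 0.364% of all genes tested. The median log2 difference was -0.90, against -0.0011 for all genes. The list was chosen with earlier results of these data known, and its size of difference is a description. In whole hearts, fewer red cells and less of these transcripts per red cell cannot be told apart.

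Because the genes that passed outside the segment were adult globins, the 100 bases before the RefSeq starts (GRCm38.p6) of the 4 adult globin genes are shown, with Hbb-bt as the neighbour of Hbb-bs although it did not pass, and with those of Alas2, the enzyme of the first step of haem synthesis in red cells.
Capitals mark 4 short words on either strand: CCAAT, bound by general factors, then CACCC, read by Krüppel-like factors such as Klf1, then ATATAA, a form of the TATA box, and lastly GATAA, the word of GATA factors such as Gata1.
Hba-a1 (chr11:32283572-32283671, plus strand): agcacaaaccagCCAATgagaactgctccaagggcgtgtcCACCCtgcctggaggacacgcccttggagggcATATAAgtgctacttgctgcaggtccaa
Hba-a2 (chr11:32296392-32296491, plus strand): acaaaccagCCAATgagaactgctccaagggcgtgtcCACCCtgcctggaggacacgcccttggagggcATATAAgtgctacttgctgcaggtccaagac
Hbb-bs (chr7:103827929-103828028, minus strand): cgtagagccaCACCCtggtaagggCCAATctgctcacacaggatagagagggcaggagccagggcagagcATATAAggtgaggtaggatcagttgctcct
Hbb-bt (chr7:103813924-103814023, minus strand): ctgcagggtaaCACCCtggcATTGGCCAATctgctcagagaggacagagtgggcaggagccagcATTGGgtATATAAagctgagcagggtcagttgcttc
Alas2 (chrX:150547317-150547416, plus strand): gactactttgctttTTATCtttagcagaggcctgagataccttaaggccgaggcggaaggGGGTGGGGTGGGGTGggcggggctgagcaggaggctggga

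CACCC was found in all 5 windows and in 27.2% of the 32817 windows of the same length before RefSeq starts, CCAAT in 4 and in 18.9%, ATATAA in 4 and in 3.75%, and GATAA in 1, that of Alas2, and in 8.56%. A match says only that the letters are present. The windows of Hba-a1 and Hba-a2 shared a run of 97 bases, whereas those of Hbb-bs and Hbb-bt shared no run longer than 14. The transcripts are alike as well: 65.2% of all stretches of 75 bases in the longest coding Hba-a1 transcript also occurred in Hba-a2 (GENCODE vM39), and 15.3% of those of Hbb-bs occurred in Hbb-bt. How reads were divided within each pair is therefore uncertain, and the pair is the safer unit.

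Hba-a2 counts in Dp3Tyb replicates 1 to 5 were 18114, 15406, 12596, 13204 and 12425, and in Ts1Rhr they were 36639, 35918, 40212, 32634 and 52009.9. Hba-a1 counts were 13664, 10842, 10533, 9414 and 9001 in Dp3Tyb and 27860.2, 27183, 26852, 21192 and 31763 in Ts1Rhr. For both genes every Dp3Tyb heart was below every Ts1Rhr heart, and Ts1Rhr replicate 5 was the highest. The log2 difference was -1.46 ± 0.14 for Hba-a2 (SE, limma adjusted p = 0.00136), 2.74-fold lower, and -1.34 ± 0.13 for Hba-a1 (SE, limma adjusted p = 0.00136), 2.53-fold lower. Without the 3 libraries over 10% mitochondrial reads the differences were -1.48 and -1.25, and neither passed (adjusted p = 0.177 each). Hba-a1 did not pass either when all 20 libraries were fitted together (limma adjusted p = 0.0913).

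Hbb-bs counts were 8120.2, 12449.6, 8757, 8133 and 6792 in Dp3Tyb and 26041, 16656, 22396, 19524 and 36043 in Ts1Rhr. Hbb-bt counts were 5584, 6716, 5021, 4883 and 3078 in Dp3Tyb and 11683, 8873, 12005, 9975 and 16618 in Ts1Rhr. The beta globins thus separated the groups like the alpha globins did. The log2 difference was -1.43 ± 0.20 for Hbb-bs (SE, limma adjusted p = 0.0486), a call lost in 10 of 14 other settings, edgeR among them, with log2 differences of -1.53 to -1.29 in these 10, kept on dropping Dp3Tyb replicate 2 or Ts1Rhr replicate 2 and lost on dropping any of the other 8 libraries, and -1.24 ± 0.20 for Hbb-bt (SE, limma adjusted p = 0.106).

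The embryonic globins did not pass in limma. Hbb-y, the embryonic epsilon-type beta globin, ranged over 10354 to 29324 in Dp3Tyb and 24407 to 45425 in Ts1Rhr, and only Dp3Tyb replicate 1 reached the Ts1Rhr range (log2 difference -1.14 ± 0.25, SE). Hba-x, the embryonic zeta-type alpha globin, behaved alike, at 3169 to 8513 and 7386 to 16306 (log2 difference -1.20 ± 0.27, SE). The adult share of all beta globin counts was 31.1 to 57% in Dp3Tyb and 36.3 to 57.8% in Ts1Rhr, and the adult share of alpha globin counts was 78.9 to 89.1% and 79.5 to 91.2%. These shares overlapped, so the balance of adult and embryonic globins did not separate the strains although their summed level did. All globin reads together were 0.265 to 0.581% of reads in Dp3Tyb and 0.802 to 1.28% in Ts1Rhr.

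Other genes of red cells had separate groups without passing in limma. Alas2 counts were 862, 606, 538, 467 and 383 in Dp3Tyb and 1327, 1237, 1257, 1041 and 1488 in Ts1Rhr (log2 difference -1.20 ± 0.18, SE, adjusted p = 0.0612). Bpgm, the red cell enzyme that makes 2,3-bisphosphoglycerate, was at 450.2 to 712 in Dp3Tyb and 800.1 to 1009 in Ts1Rhr (-0.78 ± 0.12, SE, adjusted p = 0.0762). Tent5c, a poly(A) polymerase of erythroid and other cells, was at 428 to 736 and 829 to 1129 (-0.94 ± 0.14, SE, adjusted p = 0.0612). DESeq2 on recovered reads called 8 genes of the erythroid list, all lower, among 25 calls in all (0.168% of the genes tested). Other members were closer to 0, such as the erythroid factors Klf1 (0.14) and Gata1 (-0.17), both at low levels, and Tfrc, the transferrin receptor of dividing cells, leaned the other way at 0.32.

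**Figure D3:**
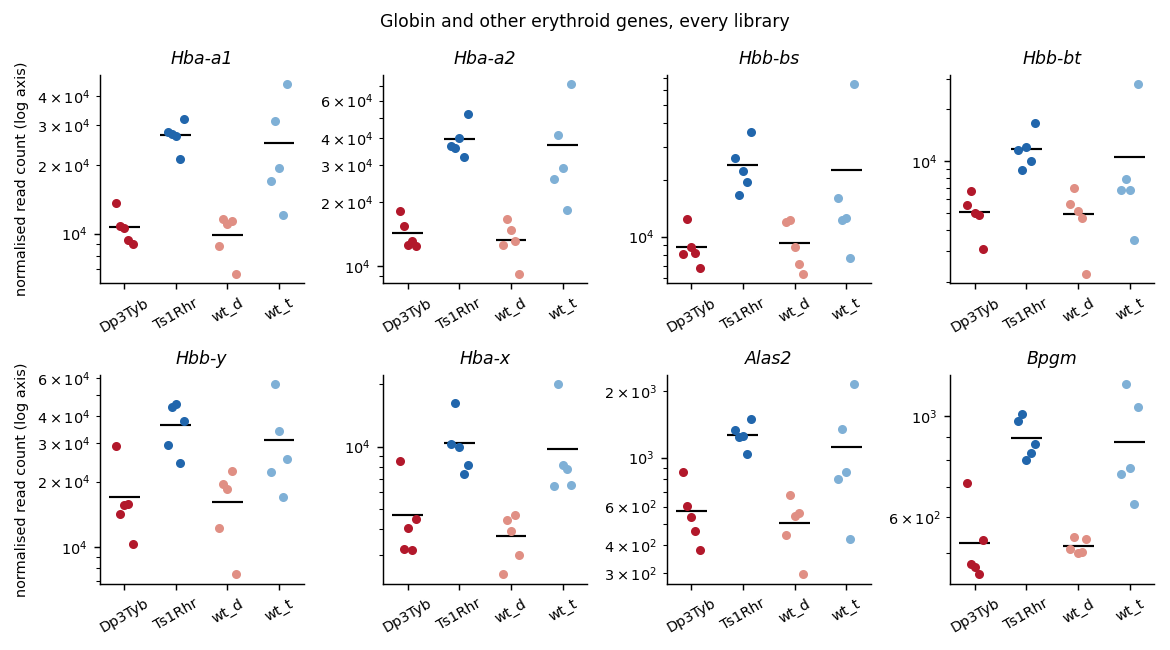
Normalised read counts (vertical axes, logarithmic) of 6 globin genes, Alas2 and Bpgm; each point is a library, 5 in each of 4 groups, and the bar is the mean. In every panel wt_d lies largely with Dp3Tyb, whereas wt_t spreads widely, and for Hbb-bs and Hbb-bt 4 wt_t hearts lie below the Ts1Rhr range and replicate 5 lies above it.

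The same red cell genes leaned the same way between the 2 WT groups, which carry neither duplication and share no library with the mutants. Hba-a2 was 13264 ± 2773 in wt_d and 37272 ± 21038 in wt_t (SD, n = 5 each), a log2 difference of -1.35 ± 0.31 (SE, unadjusted p = 0.00109). No gene passed the adjusted threshold between wt_d and wt_t in limma or edgeR, where 14779 genes were tested, 677 had an unadjusted p under 0.05 in limma (4.58%, with 2.17% higher and 2.41% lower in wt_d), and DESeq2 called 16 (0.108%). The erythroid list had a median of -0.91 between the controls, beside -0.90 between the mutants, and 8 of its 16 members tested there had an unadjusted p under 0.05, all lower in wt_d. With the controls taken off each strain, the median of the list was 0.015, and the difference for Hba-a2 was -0.10 ± 0.36 (SE, 95% interval -0.86 to 0.66, adjusted p = 0.9997). The intervals for Hba-a1 (-0.88 to 0.63), Hbb-bs (-1.69 to 0.61) and Alas2 (-1.13 to 0.73) contained 0 as well. The control values of the beta globins rested on wt_t replicate 5, the highest heart of all 20 for these genes. Without it the wt_t mean of Hbb-bs was 12138 instead of 22677, and that of Hbb-bt 6242 instead of 10602, nearer to wt_d (9287 and 4936) than to Ts1Rhr. The log2 difference between the controls was then -0.39 for Hbb-bs, -0.37 for Hbb-bt, -1.08 for Hba-a2 and -0.96 for Hba-a1, and the list's median was -0.77. With the controls taken off each strain, leaving out that heart gave -1.04 for Hbb-bs (unadjusted p = 0.00694), -0.87 for Hbb-bt (unadjusted p = 0.0481), -0.38 for both alpha globins and a median of -0.18 for the list, and no gene passed the adjusted threshold in limma. That heart was picked for its high values, while Ts1Rhr replicate 5, the highest of its own group for the adult globins, was kept. Leaving out a high heart among the controls only shifts these values toward a lower level in Dp3Tyb. The intervals with all hearts are wide, and a strain difference within them was not detectable at this number of hearts. Cohort and strain cannot be told apart for these genes in the direct comparison alone.

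C2cd2 and Zbtb21 at the distal end of the segment, in contrast, passed also with the controls taken off each strain. In that test of 15348 genes, 2 passed in limma (0.0130%), C2cd2 with 0.71 ± 0.11 (SE, adjusted p = 0.0292) and Zbtb21 with 0.61 ± 0.10 (SE, adjusted p = 0.0358). The median of the 8 genes was 0.60, and that of the genes in 3 copies in both strains 0.013. No gene outside the segment passed, and both calls rested on the full set of hearts, since with 1 library dropped in turn 11 of 20 fits called no gene. These were the fits without Dp3Tyb replicate 1, 4 or 5, Ts1Rhr replicate 1, 2 or 4, wt_d replicate 1 or 3, or wt_t replicate 1, 3 or 5.

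**Figure D4:**
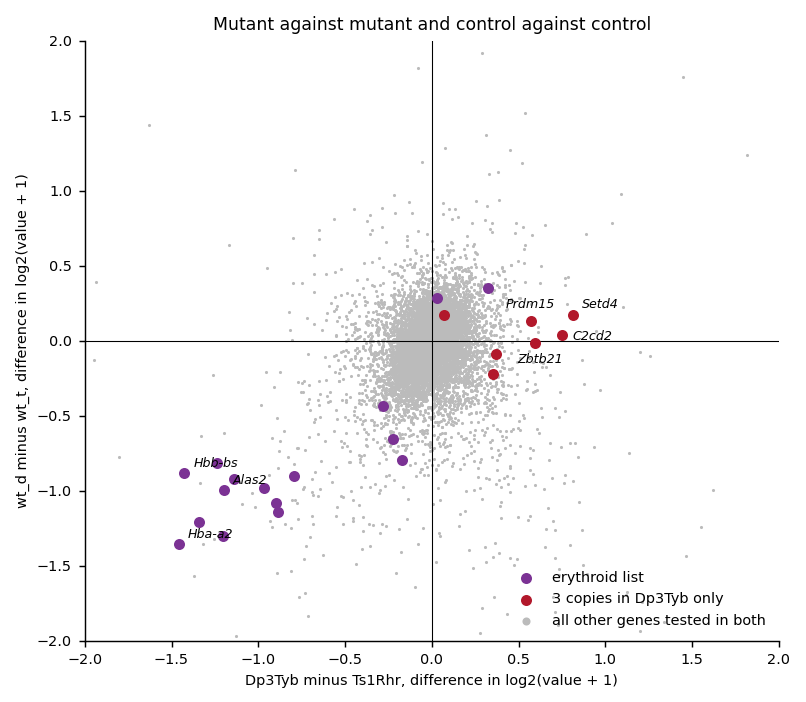
Differences in log2(value + 1) for 14620 genes tested in both comparisons, Dp3Tyb minus Ts1Rhr (horizontal axis) and wt_d minus wt_t (vertical axis); each point is a gene and 29 genes lie beyond the axes. Most erythroid genes lie below 0 on both axes, whereas the genes in 3 copies in Dp3Tyb only lie to the right and within about 0.2 of 0 on the vertical axis (Tmprss2 was not tested between the controls and is not drawn).

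Across the 14620 genes tested in both, the 2 sets of log2 differences were weakly related (Pearson's r = 0.112, Spearman's rho = 0.261). The comparisons shared no library, but mutants and controls of a cohort were littermates by the study's methods and genes are not independent replicates, so the values are a description. Of the 54 genes lower in every Dp3Tyb heart, 47 (87.0%) were lower in wt_d too, and of the 42 genes higher in every Dp3Tyb heart 34 (81.0%) were higher in wt_d, beside 61.6% and 61.3% of all genes lower or higher in Dp3Tyb. Among the 54, 15 also had an unadjusted p under 0.05 between the controls in the same direction, which is 27.8%, beside 3.18% of all genes lower in Dp3Tyb. Among the 42, 2 had, which is 4.76%, beside 3.74% of all genes higher in Dp3Tyb.

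Outside the segment no gene passed as higher in Dp3Tyb in limma. The 6 with the smallest p among those with separate groups are given although limma did not call them. Heph, hephaestin, a copper-dependent ferroxidase that helps to export iron, had counts of 1024, 1051, 973, 1061 and 1063 in Dp3Tyb and 696, 733, 739, 845 and 890.2 in Ts1Rhr, with wt_d at 796 to 876 and wt_t at 766 to 916. Every Dp3Tyb heart lay above every control heart, and Ts1Rhr overlapped the controls, with replicates 1, 2 and 3 below all of them. Its log2 difference was 0.41 ± 0.075 between the strains (SE, adjusted p = 0.203), 0.031 ± 0.063 between the controls and 0.38 ± 0.094 with the controls taken off (SE, adjusted p = 0.9997).

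Rps27l, a ribosomal protein paralog induced by p53, had counts of 674, 675, 698, 701 and 779 in Dp3Tyb and 606, 593, 593, 562 and 512 in Ts1Rhr (log2 difference 0.30 ± 0.068, SE, adjusted p = 0.602). Rps13-ps2, a pseudogene of a ribosomal protein, was at 69.5 to 124 in Dp3Tyb and 29.3 to 59.9 in Ts1Rhr (1.09 ± 0.23), and its value between the controls was 0.98 ± 0.37. Gm10288 was at 242 to 342 and 112 to 218 (0.77 ± 0.17, controls 0.42 ± 0.12). Reads of a pseudogene may belong to its parent gene or other copies, so its value is uncertain. The last were the non-coding 9330159M07Rik (0.39 ± 0.10) and Gm12758 (0.64 ± 0.20). DESeq2 called 10 genes as higher (0.0673%) and 15 as lower (0.101%). Of these, 5 outside the segment were higher, among them Heph, Rps27l, Rps13-ps2 and Gm10288, and 7 of the lower genes were not on the erythroid list.

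Lists of genes tied to the study's subject showed small differences between the strains and no member past the adjusted threshold. For the respiratory chain, 36 nuclear genes of complex I were tested, 25 of them lower in Dp3Tyb, with a median log2 difference of -0.038. Ndufs1, its largest core subunit, was 4601 ± 417 in Dp3Tyb and 4489 ± 209 in Ts1Rhr (SD, n = 5 each). Genes of complexes II to IV had a median of -0.024 over 28, with Sdha of complex II at -0.062 ± 0.063, and those of complex V one of -0.030 over 17. The 13 mitochondrially encoded mRNAs had a median of -0.23, and -0.69 between the controls. Among the controls, wt_t replicates 1, 2 and 4 and wt_d replicate 5 were over 10% mitochondrial reads. Mitochondrial ribosomal proteins had a median of -0.046, 58 of 78 being lower in Dp3Tyb.

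For proliferation, 55 of 67 genes of the G2 and M phases were lower in Dp3Tyb, with a median of -0.057, and 39 of 59 S phase genes were, with a median of -0.024. The corresponding medians between the controls were -0.035 and 0.0095. Mki67, the proliferation antigen Ki-67, had counts of 6411, 6121, 6005, 6467 and 10501 in Dp3Tyb and 9436, 10889, 5991, 6598 and 6452 in Ts1Rhr, and the 3 highest were the libraries over 10% mitochondrial reads. Rrm1, a subunit of ribonucleotide reductase, was at a log2 difference of -0.024 ± 0.063 (SE). Members of a list are not independent of each other, so the share of members on one side is a description.

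For heart muscle, 30 of 37 cardiomyocyte genes were lower in Dp3Tyb, with a median of -0.068, and 0.040 between the controls. Myh7, the slow beta myosin heavy chain of the ventricles, was 119849.6 ± 22000.3 in Dp3Tyb and 134038 ± 20260.1 in Ts1Rhr (SD, n = 5 each, log2 difference -0.17 ± 0.15, SE). Cardiac transcription factors had a median of -0.048 over 33 genes, Tbx20 being at 0.011 ± 0.065, and genes of the endocardial cushions and valves one of -0.030 over 38, with Vcan, the versican of the cushion matrix, at 0.026 ± 0.12. Endothelial genes had a median of -0.026 over 31, with Cdh5 (VE-cadherin) at -0.14 ± 0.10. Hypoxia-inducible genes had a median of 0.054 over 18, with Pdk1 at 0.056 ± 0.083, and interferon-induced genes one of 0.020 over 36.

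Genes of lung and foregut had a median of 1.26 over 13 tested, but -2.36 between the controls, in the opposite direction, and no member separated the mutant groups. The summed level of the whole list of 20 was 2629 to 3662 in Dp3Tyb and 2426 to 3150.3 in Ts1Rhr. Id2, the member of highest level, is also a gene of heart tissue and was at 0.023 ± 0.084 (SE). Neural crest and Schwann cell genes had a median of 0.089 over 18, with Hand2 at -0.18 ± 0.21, and macrophage genes one of -0.0020 over 17. Of the other lists, immediate early genes, which respond within minutes to handling or growth factors, had a median of -0.10 with 19 of 23 lower in Dp3Tyb, and 0.092 between the controls. Genes of hedgehog and NFAT signalling had a median of 0.056 over 27, cytosolic ribosomal proteins one of 0.014 over 49, and matrix genes one of -0.025 over 47.

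**Figure D5:**
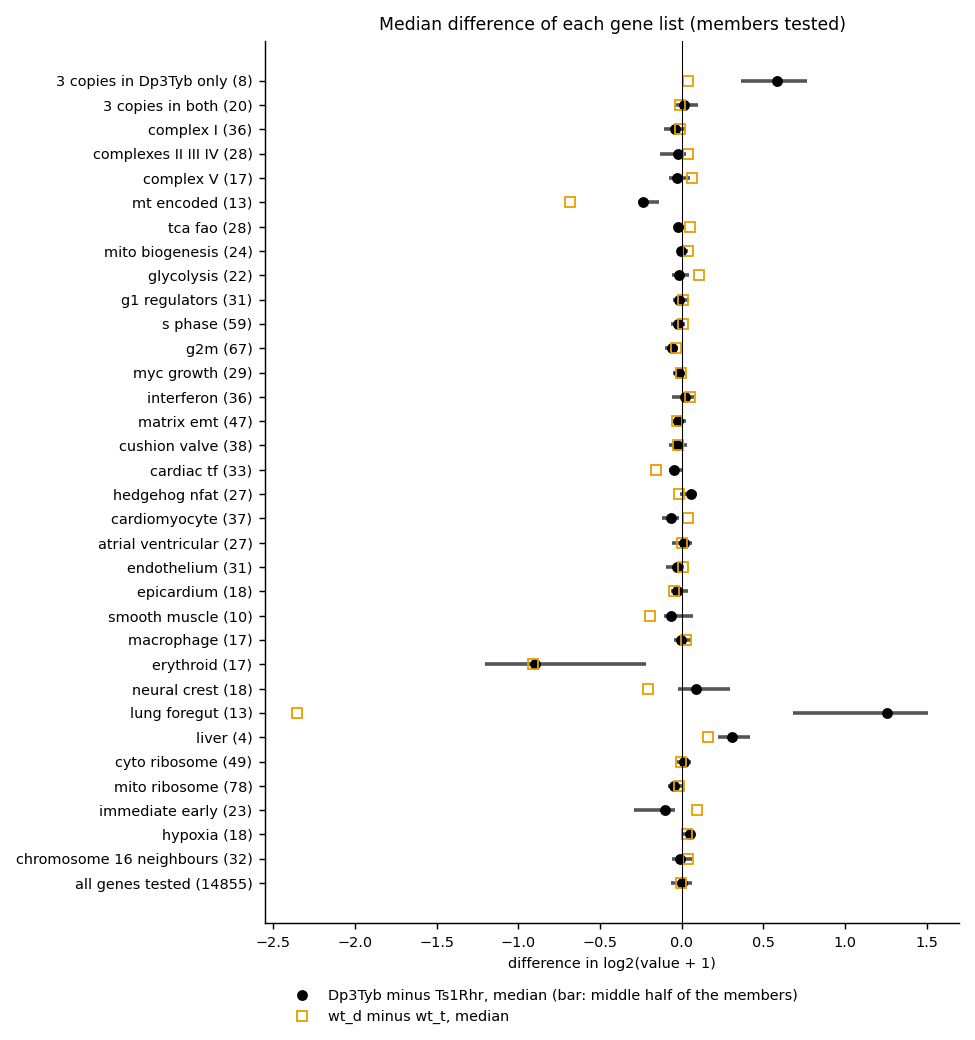
Median difference in log2(value + 1) of each gene list, with the number of members tested in brackets; circles are Dp3Tyb minus Ts1Rhr with a bar over the interquartile range, open squares wt_d minus wt_t. Among the lists drawn, the set with the extra copy in Dp3Tyb alone, the erythroid, the lung and foregut and the liver genes had medians beyond 0.3 in size between the mutants, and for the erythroid list the square lies on the circle.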

How the data were processed

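Hearts of mouse embryos were profiled by RNAseq of poly(A) RNA libraries (KAPA mRNA HyperPrep kit). The submitters' processing notes name Trimmomatic 0.36, STAR 2.5.2a, RSEM 1.2.31 and DESeq2 with GRCm38. The values deposited by the authors are a signal per gene, namely read counts divided by a size factor per library, with all 20 libraries scaled together. Dividing by the smallest value above 0 of a library, which is the worth of 1 read, gave whole reads for 100% of values within a relative tolerance of 1e-06, and the factors were those of the median-of-ratios method.

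Gene names came from GENCODE vM39 (44565 of 48795 identifiers) and positions from RefSeq GRCm38.p6. Genes with a value of at least 10 in 5 or more libraries were tested with limma 3.58.1 in R 4.3.3 on log2(value + 1), with trend and robust variance and 2-sided p-values under the Benjamini-Hochberg adjustment at 0.05. Fold changes are on this scale, and those of low genes depend on the pseudocount. The 3 comparisons were Dp3Tyb against Ts1Rhr, wt_d against wt_t, and the difference of each strain from its own controls. Whole reads were tested with edgeR 4.0.16 (quasi-likelihood) and DESeq2 1.42.0 as alternatives. Group values are mean ± SD and fitted differences ± SE. Scripts were tested on simulated data.

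Named genes were those in 3 copies in Dp3Tyb only, Dyrk1a with the 3 highest and lowest of the genes in 3 copies in both strains, the 6 genes of smallest p in each direction outside the segment whose groups did not overlap, the nearest 3 tested neighbours, and the member of highest mean of selected lists. The remaining globins, Klf1, Gata1 and Tfrc were added after their values were seen. Members and lists were chosen with earlier results of these data known. Of 989 listed symbols 984 matched. Replicate numbers were given in listing order and were not used to pair libraries.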

Additional observations from a re-analysis of the deposited data

Results flagged for a closer look

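A sample is listed where its gap to the nearest other sample of its group of 5, divided by the range of the group, was above 0.71 (Dixon's 95% value). Over 102 groups tested chance gives about 5.1 such samples.

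Dp3Tyb replicate 5, the Dp3Tyb library with the highest mitochondrial share (15.1%), was the highest of its group for Erg (1018), Dyrk1a (3196), Rps27l (779), mt-Co1 (616803), Mki67 (10501), Hand2 (2688) and Mrpl42 (1729), in normalised read counts. Dp3Tyb replicate 1 was the highest for Tent5c (736) and for the summed embryonic globins (38911), and the lowest for Clic6 (36.6). Dp3Tyb replicate 3 was the lowest for Zbtb21 (393). In Ts1Rhr, replicate 3 was the highest for Mx2 (35.5), and replicate 1 the highest for Tbx20 (10528). Among the controls, wt_d replicate 5 had a mitochondrial share of 19.1% and wt_t replicate 5 an adult globin share of 1.44% of reads.

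The strain differences from their own controls differed for C2cd2, by 0.71 on the log2 scale (limma adjusted p = 0.0292), and for Zbtb21, by 0.61 (limma adjusted p = 0.0358), each higher in Dp3Tyb.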

How the results depend on the processing

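No paired analysis was run, because the labels name no pairs and the replicate numbers only follow the listing order. Sex called from transcripts was the same in mutant and control at every replicate number of both cohorts. Whether these libraries are pairs was not tested. The count of genes called between Dp3Tyb and Ts1Rhr was 5, and it was 8 without the filter, 25 by DESeq2, 9 with array weights, 9 with a mitochondrial read term, 3 with a sex term, 3 with a lung and foregut term, 1 without the libraries over 10% mitochondrial reads, 3 without the Ts1Rhr hearts labelled with defects and 0 with an erythroid marker term, added after seeing the data, whose level does not overlap between the strains. Outside the segment the count of 3 became 6, 20, 6, 6, 0 and 0 without the filter, by DESeq2, with array weights, with the mitochondrial term, without the libraries over 10% and with the erythroid term. Between the controls the count of 0 became 16 by DESeq2 and 3284 with array weights, and the cause was not tested. The 2 calls with the controls taken off were 0 without the filter, with TMM scaling, with the sex or lung term and without the hearts labelled with defects. Leaving out 1 library gave 3 to 12, 2 to 10, 0 to 9 and 0 to 3 calls for these 4 counts. The highest of the second was without Dp3Tyb replicate 1, and of the third without wt_d replicate 5.

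The median of the 8 genes, 0.58, was 0.43 with array weights and 0.43 with the erythroid term, and 0.53 to 0.63 with 1 library left out. That of the genes in 3 copies in both strains, 0.013, was 0.044 without the hearts labelled with defects. Of 1034 values of single genes under alternatives, 934 kept direction and side of the threshold, 31 lost and 26 gained a call, and 43 reversed, all of genes not called. Without the hearts labelled with defects, Mx2 was -0.13, Erg 0.091, Sh3bgr 0.11, Sim2 -0.16, mt-Co1 0.20, Rrm1 0.015, Mki67 0.13, Hand2 0.070, Mrpl42 0.087 and B230307C23Rik 0.0019. Without the libraries over 10% mitochondrial reads, Mx2 was -0.026, Sh3bgr 0.014, Sim2 -0.27, B230307C23Rik 0.036 and Runx1 -0.014. With array weights, Sh3bgr was 0.019, Sim2 -0.56, Dyrk1a -0.022, Vcan -0.018, B230307C23Rik 0.013 and Runx1 -0.053. With the lung term, Sh3bgr was 0.062 and Sim2 -0.36, and Sim2 was -0.048 by edgeR and -0.020 by DESeq2. With 1 library left out the values ran from -0.017 to 0.25 for Mx2, -0.17 to 0.026 for Sh3bgr, -0.15 to 0.99 for Sim2, -0.052 to 0.050 for Dyrk1a, -0.00073 to 0.072 for Ndufs1, -0.36 to 0.0059 for mt-Co1, -0.047 to 0.0099 for Rrm1, -0.060 to 0.086 for Vcan, -0.011 to 0.050 for Tbx20, -0.032 to 0.065 for Id2 and -0.15 to 0.013 for B230307C23Rik. Between the strains, C2cd2 lost its call only with the erythroid term. Of 14 other settings, Hbb-bs lost its call in 10 and Hba-a1 in 2. Of 15 settings, the erythroid term included, Zbtb21 lost its call in 5.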
